A study of Mus musculus with 4 samples.

Results

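The Vdr nuclei described here were GABAergic neuronal nuclei of the mouse posterior substantia innominata, a basal forebrain region, that carried transcripts of Vdr, the vitamin D receptor. They were chosen from single-nucleus RNA counts by fixed limits on unique molecular identifiers (UMIs, each standing for 1 captured transcript): 2 or more for Vdr, at least 1 for Gad1 and Gad2 together (the enzymes that make GABA), at most 1 for Npsr1 (the neuropeptide S receptor), at most 2 for Moxd1 (a monooxygenase-like protein), 0 for the glutamate transporter genes Slc17a6 and Slc17a7, and at least 2 for the neuronal genes Syt1, Snap25 and Rbfox3 together. The limits found 103 nuclei among 38868 that had 500 to 8000 genes and under 5% mitochondrial UMIs, out of 40532 deposited barcodes. The material came from wild-type mice 8 weeks old, in 2 male and 2 female libraries, and the series was made to compare the neurons of males and females. All animals were wild types with no treatment or transgene named, and no label states that a sex's libraries came from separate animals or from pools. A p-value here therefore measures the spread between libraries alone, and that spread may be technical. Male 1 gave 26 Vdr nuclei and male 2 gave 27, while the female libraries gave 26 and 24. They were set against 16489 other nuclei with 2 or more Gad1 and Gad2 UMIs, and against 1082 Npsr1 nuclei and 469 Moxd1 nuclei, the GABAergic nuclei rich in those genes, always within the same library.

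The vitamin D receptor is a nuclear receptor. When it binds calcitriol, the active form of vitamin D, it pairs with a retinoid X receptor (RXR) and the pair attaches to direct repeats of a hexamer half-site with a gap of 3 bases. Cyp27b1 makes calcitriol, and Cyp24a1, the textbook target gene of the receptor, breaks it down. In the brain the receptor is known from neurons and glia of several regions, and GABAergic neurons of the basal forebrain project widely to cortex, hypothalamus and brainstem.

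The stretches of 250 bases upstream of the annotated starts of Vdr and of Rxrg, the RXR gene that stood out in these nuclei, are shown because the pair they encode is the one that binds the half-site. They are RefSeq sequences of build GRCm38.p6, written 5′ to 3′ on the strand of the gene, and capitals mark the half-site AGGTCA or one of its variants (GGGTCA or AGTTCA or GGTTCA) on either strand. The Vdr stretch lies at chr15:97908297-97908546 on the minus strand, and the 2 Rxrg stretches lie at chr1:167598112-167598361 and chr1:167618015-167618264 on the plus strand.
Vdr: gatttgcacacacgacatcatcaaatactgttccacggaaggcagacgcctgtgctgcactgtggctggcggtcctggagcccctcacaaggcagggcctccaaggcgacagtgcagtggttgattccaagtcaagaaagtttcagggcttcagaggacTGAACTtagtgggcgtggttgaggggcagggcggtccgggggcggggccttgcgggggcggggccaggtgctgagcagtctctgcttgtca
Rxrg, start 1: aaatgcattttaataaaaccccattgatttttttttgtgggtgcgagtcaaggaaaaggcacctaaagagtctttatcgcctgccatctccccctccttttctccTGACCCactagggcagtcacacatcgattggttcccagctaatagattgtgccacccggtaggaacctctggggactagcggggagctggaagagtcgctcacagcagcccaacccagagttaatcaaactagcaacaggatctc
Rxrg, start 2: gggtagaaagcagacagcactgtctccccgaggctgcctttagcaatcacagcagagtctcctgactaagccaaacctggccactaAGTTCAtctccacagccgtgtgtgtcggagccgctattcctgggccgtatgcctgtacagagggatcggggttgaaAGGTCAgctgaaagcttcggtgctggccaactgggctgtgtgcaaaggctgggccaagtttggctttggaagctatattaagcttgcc
The Vdr stretch held 1 half-site, the first Rxrg stretch 1 and the second 2. Such half-sites are common: 38.6% of 32851 annotated promoters of this length held at least 1, and direct repeats with a gap of 3 bases (the same 4 hexamers, NNN between them, either strand) were in 13 of them, or 0.0396%. Of the 12 genes named further on as higher in Vdr nuclei, 9 matched the promoter table with 13 stretches, of which 3 held a half-site and 0 a direct repeat. A match is a description of letters and not a binding site.

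Depth differed between the sexes throughout. The male libraries held 158132452 and 144035342 UMIs and the female libraries 53098268 and 53679351, and the file headers name Cell Ranger 9.0.1 for the males against 7.0.0 and 7.2.0 for the females, with gene lists of different length. Sex, depth and software version therefore cannot be told apart. The summed UMIs of the Vdr nuclei came to 563859 and 453034 in males and to 194878 and 274559 in females. Male 1 and male 2 shared 23 barcodes and female 1 and female 2 shared 35, and 0 Vdr nuclei carried a shared barcode. Each library's Vdr profile is the sum of 24 to 27 nuclei, so a gene with few UMIs rests on few nuclei.

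Vdr transcripts were sparse, and the Vdr nuclei lay at the upper end of a thin distribution. Among nuclei that passed the filters, 205 carried 2 or more Vdr UMIs. Of these, 103 became members, 62 were set aside for Npsr1, 26 for having no Gad1 or Gad2 UMI, 13 for a glutamate transporter UMI and 1 for Moxd1. Within the members 46 nuclei had exactly 2 Vdr UMIs, 57 had 3 or more, and the highest count was 15. The members held 355 of the 979 Vdr UMIs in nuclei that passed the filters, or 36.3%, and the other GABAergic nuclei held 403. A Vdr UMI was seen in 1.71% and 1.90% of GABAergic nuclei in males and in 1.42% and 1.97% in females. In oligodendrocyte nuclei, a type used here to gauge free RNA, the share was 0% (0 of 628) and 0.161% (1 of 620) in males and 0.145% (1 of 688) and 0% (0 of 598) in females; these nuclei were shallower, with library medians of 1490.5 to 2073.5 UMIs, where those of the Vdr nuclei were 5985.5 to 14694.5.

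Nuclei just inside and just outside the Vdr limit differed by degree in some genes and sharply in others. The 111 nuclei with a single Vdr UMI that met all the other limits averaged 211 CPM (UMIs of a gene scaled to a common total of 1000000) of Sema3a and 97.8 CPM of Satb1, the 46 members with exactly 2 averaged 516 and 136 CPM, and those with 3 or more averaged 505 and 197 CPM, against 89.1 and 37.3 CPM in the other GABAergic nuclei. For other genes the nuclei with 1 Vdr UMI were near the other GABAergic nuclei: Glp1r averaged 1.58 CPM in them, 20.6 CPM in members with exactly 2 and 1.48 CPM in the other GABAergic nuclei, and Pnoc 7.19, 43.3 and 7.84 CPM. The 62 nuclei with Vdr that were set aside for Npsr1 had 448 CPM of Sema3a and 252.5 CPM of Satb1. They were also near or above the members in Glp1r (24.9 against 25.6 CPM), Pnoc (52.9 against 41.95 CPM) and Cntnap3 (394 against 322 CPM). In Rasa4 (38.7 against 65.6 CPM) and Kl (18.8 against 32.1 CPM) they were lower. Much of the profile was thus shared by nuclei with both Vdr and Npsr1. These are descriptions of the boundary, without a test. Of the 103 members, 14 had only 1 Gad1 or Gad2 UMI.

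Of the markers that the label names, 2 set these nuclei apart and 1 hardly did. CPM values from here on use library sizes scaled by edgeR's TMM factors, and 4 values in a row stand for male 1, male 2, female 1 and female 2. Vdr, at chr15:97854425-97910630 in GRCm38, measured 168, 224, 401 and 271 CPM in Vdr nuclei by construction, against 2.03, 2.09, 1.62 and 2.15 CPM in the other GABAergic nuclei. Sema3a (chr5:13125414-13602565), which encodes a secreted axon-repelling semaphorin, measured 482, 575, 633 and 302 CPM in Vdr nuclei against 100, 94.6, 90.5 and 81.1 CPM in the others. All 4 libraries lay far above their counterparts, and the log2 fold was 2.41 ± 0.11 (SE). Lypd1, a membrane-anchored modulator of nicotinic acetylcholine receptors, measured 129, 169, 109 and 175 CPM against 53.8, 52.5, 37.7 and 41.5 CPM, a log2 fold of 1.62 ± 0.14. Lmo3, a transcriptional cofactor, measured 156, 173, 213 and 134 CPM against 129, 126, 166 and 112 CPM, a log2 fold of only 0.34 ± 0.13, and its levels overlapped between the groups. Lmo3 is thus a weak marker here, and the nuclei are called Vdr nuclei after the rule. No p-value is given for these genes because they belong to the label or the rule. Sema3a is nevertheless 1 of the 12 genes named as higher, having met the same threshold as the others. Slc17a6 and Slc17a7 were at 0 by the rule, and the remaining glutamate transporter gene Slc17a8 was at 0 in Vdr nuclei of every library too. Slc32a1, the vesicular GABA transporter, averaged 30.0 ± 18.4 CPM against 38.6 ± 16.9 CPM (SD, n = 4 libraries each; log2 fold −0.25 ± 0.23, adjusted p = 0.781).

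**Figure D1:**
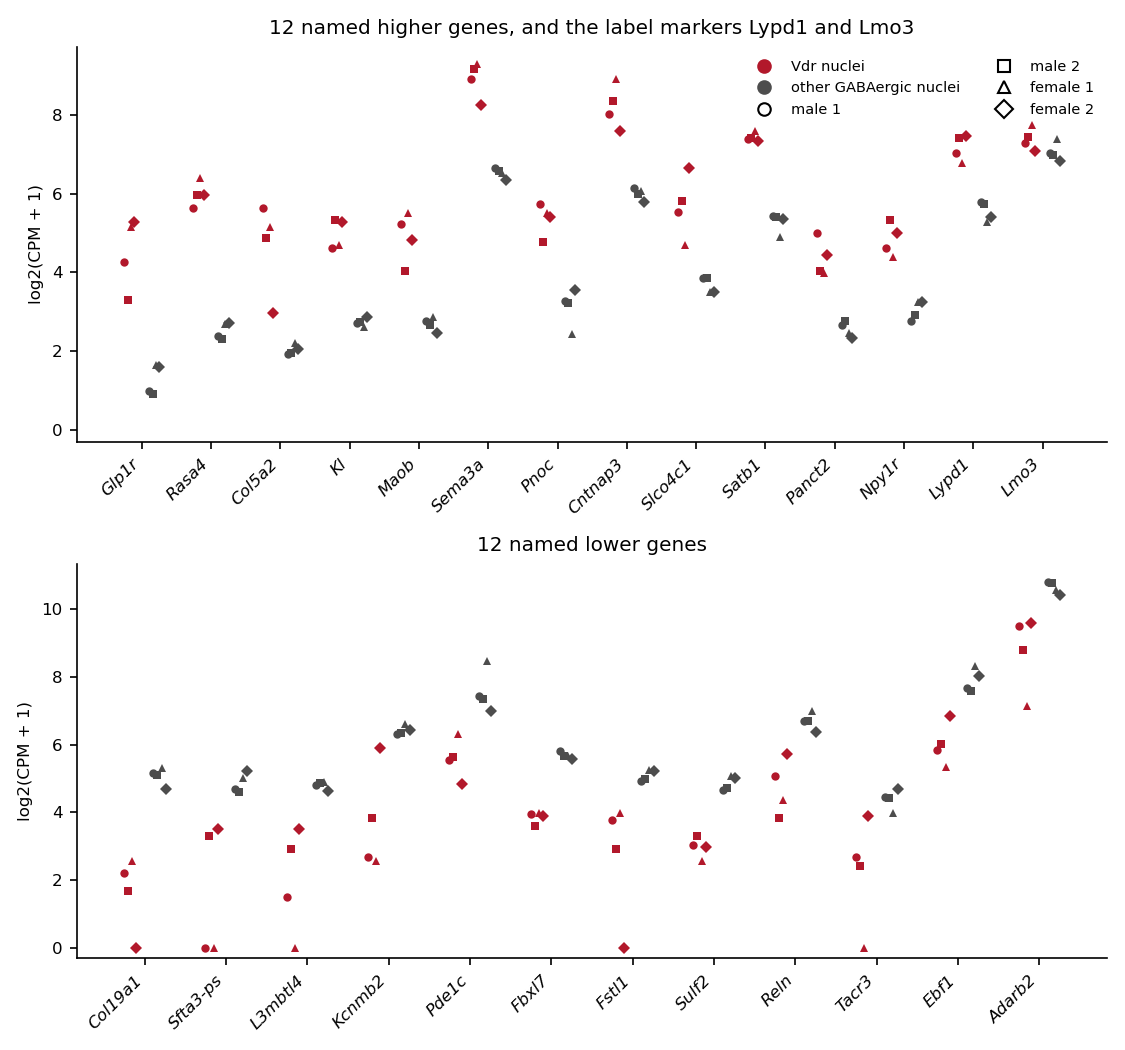
Level of each named gene as log2(CPM + 1) in Vdr nuclei (red, left) and other GABAergic nuclei (grey, right), with 1 point per library and the symbol giving the library. Upper panel: 12 higher genes, then Lypd1 and Lmo3; lower panel: 12 lower genes. The 4 red points of Rasa4, at 48.9 to 84.1 CPM, lie far above the grey ones, at 3.99 to 5.54 CPM, while those of Lmo3 overlap.

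Set against the other GABAergic nuclei of the same libraries, Vdr nuclei were higher in Glp1r, Rasa4, Cntnap3, Satb1 and other genes. They were lower in a list led by Col19a1, which was the longer one in the main fit but not in every setting. Among lineage transcription factors, semaphorins and adhesion genes more fell than rose in the main fit, as was so over all tested genes. Of 15448 genes tested, 734 passed an adjusted p of 0.05 (edgeR's quasi-likelihood test with the library as a block, Benjamini-Hochberg adjustment), or 4.75%; 269 were higher (1.74%) and 465 lower (3.01%). The genes of the rule and the label markers are not in these counts. Dropping the library block left 139 genes and taking 103 depth-matched comparison nuclei left 165, of which 72 were higher and 93 lower. With edgeR's RLE scaling 48.3% of the called genes were higher, against 36.6% with TMM. The share was 55.8% with DESeq2 and 51.8% without the library block, so the excess of lower genes was absent in both. The median log2 fold over all tested genes was −0.074, −0.0011 with RLE and 0.294 with DESeq2, and folds are best read relative to it. Of the named genes that could be tested with the depth-matched nuclei, 19 kept their result and 15 did not. The remaining named genes had too few counts for that fit, which says nothing about them. Among the genes named in the text, the calls of Reln, Pde1c, Kcnmb2, Chrm2, Penk, Sema3c, Meis2, Foxp2, Htr2c, Calb1, Insr, Ncoa1, Plxna4, Mbp and Slc1a2 did not hold with the depth-matched nuclei. Without the library block those of Adarb2, Mc4r, Npy5r, Prlr, Tacr1, Tacr3, Trhr, Lypd6, Htr7, Drd2, Drd3, Rorb, Bcl11b, Tshz1, Slit2, Sfta3-ps, Fstl1, Slc1a3 and Chat ended too, as did those of most genes of the first set (not Reln, Pde1c or Chrm2).

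The tested gene with the largest fold among those named was Glp1r, at chr17:30901817-30940791, which encodes the receptor of the incretin hormone glucagon-like peptide. It measured 18.1, 8.78, 34.6 and 37.8 CPM in Vdr nuclei and 0.991, 0.876, 2.12 and 2.00 CPM in the other nuclei. The groups did not overlap, and the log2 fold was 4.01 ± 0.46 (SE, adjusted p = 4.65e-16, edgeR quasi-likelihood), on 32 UMIs in 23 of the 103 nuclei. Rasa4 (chr5:136083916-136111860), a GTPase-activating protein that turns Ras off, measured 48.9, 61.4, 84.1 and 61.9 CPM in Vdr nuclei against 4.20, 3.99, 5.45 and 5.54 CPM in the others. The groups lay far apart, and the log2 fold was 3.72 ± 0.29 (adjusted p = 1.62e-34). Cntnap3 (chr13:64736182-64903955), a contactin-associated adhesion protein, measured 261, 329, 480 and 192 CPM against 70.0, 62.7, 66.1 and 54.6 CPM. Its log2 fold was 2.25 ± 0.12 (adjusted p = 7.11e-78), and 87 of the 103 nuclei carried it. Satb1 (chr17:51736187-51833290), a chromatin organiser that shapes the maturation of cortical interneurons, measured 168, 169, 193 and 162 CPM against 42.5, 41.4, 29.1 and 40.1 CPM, with a log2 fold of 2.14 ± 0.14 (adjusted p = 1.95e-48). The spread of Satb1 between libraries, 13.7 CPM (SD) around 173 CPM, was small beside its difference from 38.3 ± 6.20 CPM (n = 4 libraries each).

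Further named genes were higher with fewer UMIs. Col5a2, a fibrillar collagen chain, averaged 29.7 ± 17.5 CPM in Vdr nuclei and 3.11 ± 0.377 CPM in the others (log2 fold 3.33 ± 0.39), but its lowest library, female 2, had 2 UMIs. Maob, which degrades monoamines, averaged 30.9 ± 12.5 against 5.47 ± 0.744 CPM (2.42 ± 0.36), and Slco4c1, an organic anion transporter, 56.1 ± 31.6 against 12 ± 1.83 CPM (2.19 ± 0.25). Panct2, a long noncoding RNA, averaged 20.4 ± 7.39 against 4.93 ± 0.785 CPM (2.08 ± 0.40). All of them passed the threshold, with the highest adjusted p at 1.1e-05 for Panct2.

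Among the genes of the vitamin D axis, the RXR partner Rxrg was higher and the classical target genes were not seen. Of 26 listed genes, Vdr among them, 15 others were deep enough to test. Of these, 2 rose (Rxrg and Ncoa1) and 1 fell (Calb1), where 1.74% of all tested genes rose and 3.01% fell. The median log2 fold was 0.075 against −0.074 over all genes. Rxrg, at chr1:167598384-167639623, measured 43.4, 68.0, 64.3 and 85.9 CPM in Vdr nuclei against 26.6, 25.9, 26.0 and 27.7 CPM in the other nuclei. The lowest Vdr library exceeded the highest of the others, and the log2 fold was 1.25 ± 0.21 (adjusted p = 1.5e-07). The other RXR genes, Rxra with 9 UMIs in all and Rxrb with 17, had log2 folds of 0.63 ± 0.63 (adjusted p = 0.803) and 0.34 ± 0.43 (adjusted p = 0.864), which leaves differences of either sign possible. Cyp24a1 had 0 UMIs in the Vdr nuclei of every library, which allows up to 2.00 CPM (3 counts over the group), and 22 UMIs in all the other GABAergic nuclei, or 0.106 ± 0.0245 CPM; a difference between them was not detectable at this depth. Cyp27b1, Cyp3a11, Lrp2, Cubn, Trpv5, Trpv6, S100g, Spp1 and Bglap were likewise at 0 in the Vdr nuclei.

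Ncoa1, a coactivator of nuclear receptors, averaged 420 ± 59.0 CPM in Vdr nuclei and 313 ± 5.38 CPM in the others (log2 fold 0.42 ± 0.11, adjusted p = 0.00272). The call did not hold without male 2 (adjusted p = 0.0860) or without female 2 (adjusted p = 0.0792). Calb1, the calcium buffer calbindin, a vitamin D target in intestine and kidney, measured 45.3, 17.6, 29.7 and 17.2 CPM in Vdr nuclei against 59.5, 59.6, 51.9 and 42.3 CPM in the others. It was lower with a log2 fold of −0.93 ± 0.22 (adjusted p = 0.00123), the groups overlapping between male 1 and female 2, and without male 2 the adjusted p was 0.173. Pdia3, an endoplasmic reticulum chaperone also described as a membrane receptor for calcitriol, averaged 65.7 ± 17.5 against 72.7 ± 14.1 CPM (log2 fold −0.11 ± 0.17, adjusted p = 0.896). Outside the list, Kl (chr5:150952607-150993817), klotho, a coreceptor for a fibroblast growth factor that governs phosphate and vitamin D metabolism, measured 23.5, 39.5, 24.7 and 37.8 CPM in Vdr nuclei. In the other nuclei it measured 5.59, 5.62, 5.12 and 6.29 CPM, with no overlap and a log2 fold of 2.46 ± 0.34 (adjusted p = 1.13e-10). 

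Receptors of peptides and hormones passed the test in both directions. Of 39 tested, 7 rose and 4 fell, with a median log2 fold of −0.135, where 1.74% of all tested genes rose and 3.01% fell. Beside Glp1r, these were Mc4r, Npy1r, Npy5r, Prlr, Ghr and Trhr, the last of which did not pass without male 1 (adjusted p = 0.504). Mc4r, the melanocortin receptor that limits food intake, measured 18.1, 26.3, 4.95 and 24.1 CPM in Vdr nuclei against 1.85, 2.09, 0.499 and 4.83 CPM in the others (log2 fold 3.13 ± 0.46, adjusted p = 9.82e-10). Its lowest Vdr library, female 1, had 1 UMI, and it was also the lowest among the other nuclei. Npy1r, a neuropeptide Y receptor, measured 23.5, 39.5, 19.8 and 30.9 CPM against 5.81, 6.50, 8.53 and 8.55 CPM (2.05 ± 0.33, adjusted p = 7.1e-08), and its partner Npy5r averaged 25.3 ± 7.2 against 8.88 ± 3.63 CPM (1.52 ± 0.33, adjusted p = 0.000243). Both of these neuropeptide Y receptors were higher in every library.

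Prlr, the prolactin receptor, averaged 142 ± 39.2 CPM in Vdr nuclei and 80.9 ± 11.8 CPM in the others (log2 fold 0.72 ± 0.14, adjusted p = 1.29e-05). Ghr, the growth hormone receptor, averaged 316 ± 21.0 against 192 ± 25.0 CPM (0.71 ± 0.11, adjusted p = 1.96e-08), without overlap. The receptors that fell were Rxfp2, Tacr1, Tacr3 and Insr, and Insr did not pass without male 1, female 1 or female 2 (adjusted p of 0.0961, 0.163 and 0.115). Rxfp2, the receptor of insulin-like peptide 3, had 2 UMIs in the Vdr nuclei, both in male 1 and none without that library, and averaged 0.905 ± 1.81 CPM against 17.1 ± 4.42 CPM; pooled over libraries the other nuclei had 12.3 times the Vdr level (95% counting interval 3.41 to 102). Tacr3, the neurokinin B receptor, averaged 5.89 ± 5.74 against 20.3 ± 4.12 CPM (−1.79 ± 0.44, adjusted p = 0.0014), and did not pass with DESeq2 (adjusted p = 0.0995) or a Vdr limit of 3 (−1.31, adjusted p = 0.188).

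**Figure D2:**
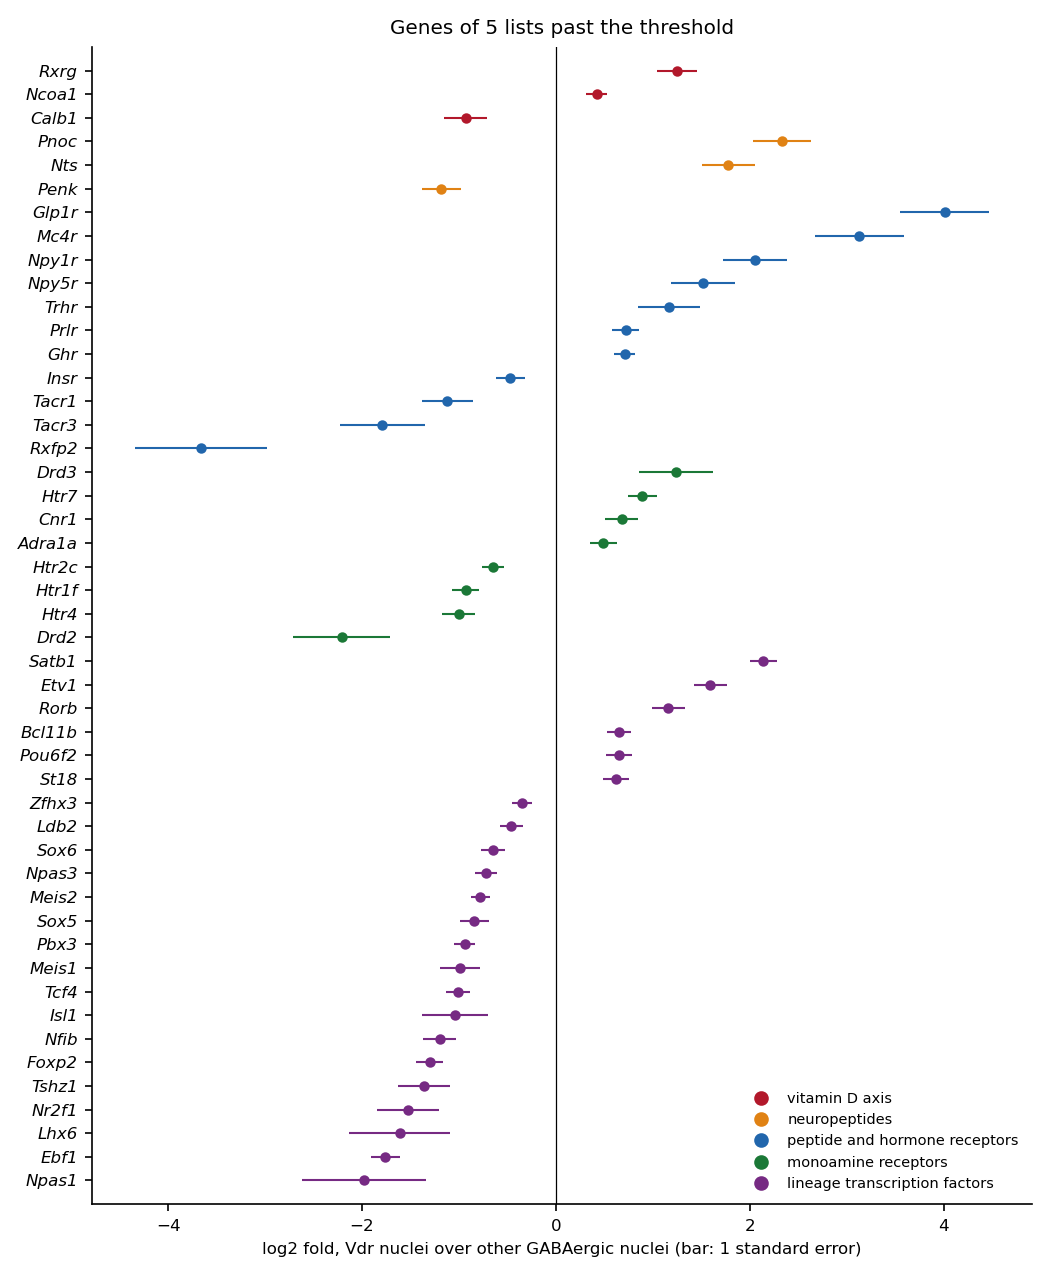
Log2 fold of Vdr nuclei over other GABAergic nuclei for genes of 5 lists that passed the threshold; points are estimates, bars 1 standard error over 4 libraries, colours the list. Glp1r (4.01) and Mc4r (3.13) head the receptors. More of the transcription factors lie below 0 than above it, as was so for all called genes.

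Of 22 neuropeptide genes tested, 2 rose and 1 fell, with a median log2 fold of −0.359; over all genes 4.75% passed. Pnoc, the precursor of the opioid-like peptide nociceptin, measured 52.5, 26.3, 44.5 and 41.2 CPM in Vdr nuclei and 8.61, 8.25, 4.37 and 10.8 CPM in the other nuclei, and the groups did not overlap (log2 fold 2.33 ± 0.30, adjusted p = 9.22e-13). Nts, neurotensin, averaged 41.2 ± 13.1 against 12.1 ± 4.85 CPM (1.78 ± 0.27, adjusted p = 7.63e-09). Penk, the enkephalin precursor, was lower, at 43.4, 28.5, 9.89 and 44.7 CPM against 82.9, 93.4, 32.3 and 79.9 CPM (−1.18 ± 0.20, adjusted p = 3.95e-07). In both groups female 1 had the lowest Penk. Sst averaged 24.3 ± 7.55 against 18.5 ± 12 CPM (adjusted p = 0.741), and Npy had 3 UMIs in all Vdr nuclei together.

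Among monoamine and cannabinoid receptors, 4 of 21 tested rose, 4 fell and the median log2 fold was −0.646. The shares over all tested genes were 1.74% and 3.01%. Htr7, a serotonin receptor that raises cyclic AMP, measured 86.9, 92.1, 173 and 113 CPM in Vdr nuclei against 64.7, 63.1, 50.4 and 52.4 CPM in the others (log2 fold 0.89 ± 0.15, adjusted p = 4.4e-07). Htr2c, a serotonin receptor that signals through phospholipase C, measured 494, 531, 223 and 217 CPM against 630, 611, 571 and 465 CPM (−0.65 ± 0.11, adjusted p = 1.24e-07). It did not pass with DESeq2 (adjusted p = 0.0595) or with depth-matched nuclei (−0.28, adjusted p = 0.662). The Vdr values were higher in both males than in both females. Drd2, the dopamine receptor of indirect-pathway striatal neurons, was lower on 6 UMIs (−2.21 ± 0.50, adjusted p = 0.000375; −3.33 without male 2), but not when other nuclei rich in the striatal genes Drd1, Drd2 or Rgs9 were left out (−0.59, adjusted p = 0.809), a comparison added after the data were seen. Drd3, a dopamine receptor of the ventral striatum and islands of Calleja, had a log2 fold of 1.24 ± 0.38 (adjusted p = 0.0253); without female 1 the adjusted p was 0.443 and without female 2 it was 0.184. Of 12 genes tested among relatives of Lypd1 and acetylcholine receptors, 1 rose and 2 fell (median −0.407). Lypd6, a relative of Lypd1, averaged 36.3 ± 20 against 13.3 ± 1.72 CPM (1.30 ± 0.29, adjusted p = 0.000368), while the muscarinic receptor Chrm2 averaged 36.7 ± 13.8 CPM in Vdr nuclei against 114 ± 8.35 CPM in the others (−1.68 ± 0.19, adjusted p = 7.65e-17).

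More of the lineage transcription factors fell than rose, as was so over all tested genes (1.74% higher and 3.01% lower). Of 65 lineage factors tested, 7 rose and 17 fell, and the median log2 fold was −0.566 against −0.074 over all genes. With Satb1 rose Etv1, an ETS factor, at 118, 92.1, 153 and 65.3 CPM in Vdr nuclei against 35.3, 32.4, 39.2 and 32.4 CPM in the others (1.59 ± 0.17, adjusted p = 7.84e-19). Rorb, an orphan nuclear receptor, measured 56.1, 151, 94.0 and 75.6 CPM against 40.0, 38.8, 59.1 and 34.8 CPM (1.16 ± 0.17, adjusted p = 3.56e-10), and male 1 of the Vdr nuclei lay below female 1 of the others. It was carried by 20 of the 103 nuclei, of which 1 male 2 nucleus held 34.0% of its UMIs and 3 held 63.8%. Bcl11b, a zinc finger factor of striatal and other projection neurons, averaged 225 ± 61.9 against 140 ± 10.3 CPM (0.65 ± 0.12, adjusted p = 3.77e-06).

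Among the factors that fell, Ebf1, which directs differentiation of striatal neurons, measured 56.1, 63.6, 39.6 and 113 CPM in Vdr nuclei against 202, 192, 318 and 258 CPM in the others (−1.76 ± 0.15, adjusted p = 1.62e-29). Meis2 averaged 429 ± 158 against 739 ± 163 CPM (−0.78 ± 0.10, adjusted p = 1.14e-11) and Tshz1, a zinc finger factor of olfactory bulb and amygdala interneurons, 16.1 ± 10.3 against 42.8 ± 8.5 CPM (−1.36 ± 0.27, adjusted p = 3.7e-05; −1.96 without male 1). Foxp2, a forkhead factor, measured 313, 52.7, 14.8 and 17.2 CPM in Vdr nuclei against 280, 273, 285 and 152 CPM, so that male 1 stood above the others and the remaining libraries far below. A single male 1 nucleus held 25.9% of the Foxp2 UMIs and 3 nuclei held 52.7%; the log2 fold was −1.30 ± 0.14 (adjusted p = 2.49e-18) and −2.89 without male 1. In the nuclear receptor list, 1 of 34 genes rose (Rorb) and 3 fell, with a median of −0.284.

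Guidance and adhesion genes split in both directions. Of 14 class 3 semaphorins and receptors besides Sema3a, 2 rose, 3 fell and the median log2 fold was −0.234. The shares over all tested genes were 1.74% higher and 3.01% lower. Nrp1, neuropilin, the receptor subunit that binds Sema3a, measured 188, 182, 228 and 199 CPM in Vdr nuclei against 98.3, 101, 87.4 and 76.6 CPM in the others, with no overlap (1.10 ± 0.13, adjusted p = 3.91e-16). Plxna4, a plexin that signals for it, averaged 573 ± 80.3 against 442 ± 35.3 CPM (0.37 ± 0.10, adjusted p = 0.00728), a call that did not hold without male 2 (adjusted p = 0.0662) or female 2 (adjusted p = 0.382). Sema3c, another secreted semaphorin, averaged 25.5 ± 15.1 against 59.7 ± 12.5 CPM (−1.32 ± 0.23, adjusted p = 1.5e-06; −2.73 with doublets removed). Vdr nuclei were thus higher both in Sema3a and in the receptor subunit that binds it.

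Of 84 synaptic adhesion and guidance genes tested, 15 rose and 26 fell, with a median of −0.231. Over all tested genes 1.74% rose and 3.01% fell, so lower calls outnumbered higher ones there too. The counts of the lists below stand beside the same shares. Dcc, the netrin receptor, averaged 3047 ± 587 against 1581 ± 265 CPM (0.94 ± 0.09, adjusted p = 5.41e-24), and Slit2, the ligand of Robo receptors, measured 291, 331, 811 and 223 CPM against 204, 205, 175 and 150 CPM (1.01 ± 0.11, adjusted p = 1.49e-17). Voltage-gated and related channels gave 8 higher and 13 lower of 56, with Scn9a, a sodium channel, at 290, 351, 336 and 375 CPM against 153, 151, 175 and 152 CPM (1.10 ± 0.11, adjusted p = 2.66e-20). GABA and glycine receptors gave 4 higher and 5 lower of 23, and glutamate receptors 3 higher and 5 lower of 24. Of 19 genes for GABA synthesis and release 0 rose and 3 fell, and of 15 calcium-binding proteins 0 rose and 3 fell. Of 17 immediate early genes 0 passed in either direction (median −0.400), and of 12 mitochondrially encoded genes 0 rose and 4 fell.

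The named lower genes were led by Col19a1, a collagen chain, with 4 UMIs in all Vdr nuclei. It measured 3.62, 2.19, 4.95 and 0 CPM in Vdr nuclei and 34.5, 33.1, 38.7 and 24.8 CPM in the others (−3.62 ± 0.48, adjusted p = 5.65e-12). Reln, a secreted glycoprotein that guides layering of cortex, measured 32.6, 13.2, 19.8 and 51.6 CPM against 103, 103, 125 and 81.1 CPM (−1.82 ± 0.20, adjusted p = 2.36e-17; −0.81 with depth-matched nuclei, adjusted p = 0.419). Adarb2, a catalytically inactive relative of the RNA-editing enzymes and a marker of caudally derived cortical interneurons, measured 715, 441, 139 and 760 CPM against 1777, 1743, 1499 and 1365 CPM (−1.69 ± 0.10, adjusted p = 1.18e-58). It was uneven: 52 of the 103 nuclei carried it, 1 female 2 nucleus held 20.7% of its UMIs, and with doublets removed the log2 fold was −2.40. Pde1c, a calcium-dependent phosphodiesterase, averaged 50 ± 21.5 against 201 ± 100 CPM (−1.95 ± 0.16, adjusted p = 1.05e-29; −1.07 with depth-matched nuclei, adjusted p = 0.211). Kcnmb2, a subunit of calcium-activated potassium channels, averaged 20.5 ± 25.6 against 84.9 ± 8.55 CPM (−2.18 ± 0.23; −3.31 without female 2), and 1 female 2 nucleus held 51.9% of its UMIs. Sfta3-ps (−2.55 ± 0.43; −3.38 without male 2), L3mbtl4 (−2.53 ± 0.44), Fbxl7 (−1.93 ± 0.28), Fstl1 (−1.90 ± 0.35) and Sulf2 (−1.89 ± 0.38) completed the set. With no upper limit on genes per nucleus, a setting added after the data were seen, Col19a1 was at −2.87, Sfta3-ps at −1.85, Kcnmb2 at −1.52, L3mbtl4 at −1.55, Pde1c at −1.06, Fstl1 at −1.14 and Sulf2 at −1.05. The limits on Npsr1 and Moxd1 applied to the members and not to the other nuclei, and their part in the lower list was not tested. When the other nuclei had to meet the members' limits on glutamate transporter and neuronal genes alone, 741 genes passed.

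RNA of other cell types was present in the profiles and moved with some results. The 6 oligodendrocyte genes summed to 558, 757, 376 and 760 CPM in Vdr nuclei against 331, 342, 630 and 464 CPM in the other nuclei; 2 of 6 rose, Mbp among them, and 0 were at 0. The 6 astrocyte genes summed to 266, 505, 232 and 155 CPM against 194, 196, 258 and 165 CPM, with 2 of 5 tested higher (Slc1a2 and Slc1a3); Slc1a2 had a log2 fold of 0.46, of −0.23 with doublets removed and of 0.02 without male 2 (adjusted p = 0.0669 without male 1), and Slc1a3 did not pass without male 2 (adjusted p = 0.237). The 6 microglial genes summed to 134, 46.1, 183 and 72.2 CPM against 59.7, 56.0, 141 and 83.5 CPM with 0 of 6 past the threshold, and the precursor cell and vascular lists gave 0 of 4 and 0 of 2. Their part in the results was not tested. Of the cholinergic markers Slc5a7 and Slc18a3 were at 0 in Vdr nuclei, and the sum was 1.81, 0, 0 and 6.87 CPM against 18.5, 19.5, 22.5 and 32.2 CPM. Chat and Slc5a7 both fell, Chat not without male 2 (adjusted p = 0.0710), and with no upper limit on genes per nucleus their log2 folds were 0.25 and 0.11. Striatal genes summed to 682, 950, 752 and 694 CPM against 939, 902, 1079 and 884 CPM, with 2 of 7 lower (Drd2 and Penk). Of 21 markers of other GABAergic types tested, 2 rose (Nts and Drd3) and 8 fell. Simulated doublet scores were ranked within each library, and the highest-scoring nuclei of each were marked, 3056 of 38868 in all. Of the 103 Vdr nuclei 11 were among them, and 805 genes passed without the marked nuclei. The median score of the Vdr nuclei exceeded that of the other GABAergic nuclei in every library. It was 0.081, 0.060, 0.066 and 0.074 against 0.058, 0.047, 0.055 and 0.055.

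Shares of nuclei with a UMI were compared at equal depth. When every nucleus was thinned to 2000 UMIs, with 136 of the other GABAergic nuclei and 1 Npsr1 nucleus left out as too shallow, Sema3a was seen in 56.0% of Vdr nuclei, 9.58% of Npsr1 nuclei, 9.28% of Moxd1 nuclei and 12.8% of the other nuclei (mean over 4 libraries). Without thinning the shares were 91.3% in Vdr nuclei and 34.0% in the other nuclei. Cntnap3 was seen in 49.6%, 12.9%, 36.9% and 9.95% of the same groups and Satb1 in 33.8%, 9.81%, 9.35% and 6.27%. Rasa4 was seen in 18.6% of Vdr nuclei and in 1.27%, 1.25% and 0.842% of the other groups. Lmo3 was seen in 31.5% of Vdr nuclei against 19.6% of the other nuclei, the narrowest gap of the 6 genes by ratio. Sparse genes left little at this depth: Glp1r was seen in 2 Vdr nuclei, both of 1 library (1.92% ± 3.85 against 0.332% ± 0.125 of the other nuclei, SD over 4 libraries), where 22.3% and 1.30% carried it without thinning. Ebf1, lower in level, was seen in 12.7% ± 3.94 of Vdr nuclei against 18.1% ± 3.78 of the other nuclei, and in 31.1% against 30.4% without thinning, so its share did not separate the groups.

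**Figure D3:**
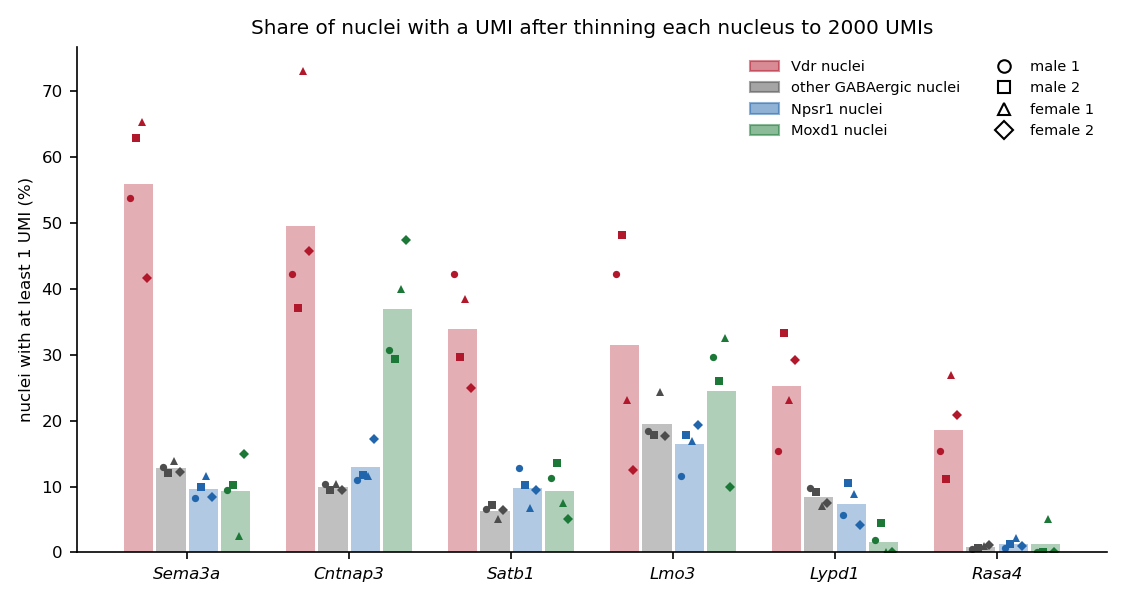
Share of nuclei with at least 1 UMI of 6 genes after thinning each nucleus to 2000 UMIs; bars are means over 4 libraries and points single libraries, for Vdr nuclei, other GABAergic nuclei, Npsr1 nuclei and Moxd1 nuclei. Sema3a (56.0% against 12.8% in the other nuclei) and Satb1 (33.8% against 6.27%) separate the Vdr nuclei, whereas Cntnap3 is also frequent in Moxd1 nuclei (36.9%).

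Within the 103 nuclei the named genes were combined unevenly. A Vdr nucleus carried UMIs of a median of 5 of the 12 named higher genes (range 1 to 11), and 63 nuclei carried 5 or more. Of the 12 named lower genes the median was 1 (range 0 to 7), and 23 nuclei had 0. A Sema3a UMI was missing from 9 nuclei, of which 6 were in female 2, and those 9 were shallow, with a median of 5360 UMIs against 11533 in the other 94. Their pooled Satb1 (161 CPM against 172 CPM) and Lypd1 (148 CPM in both) were near those of the other 94, whereas Cntnap3 (148 CPM against 307 CPM) and Lmo3 (74.2 CPM against 170.2 CPM) were lower. These nuclei carried a median of 2 of the named higher genes against 5. Sema3a is itself 1 of those 12 genes, so the split fixed part of that gap, as did the lower depth. Foxp2 was at 0 in the 9 nuclei and at 145 CPM in the 94.

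**Figure D4:**
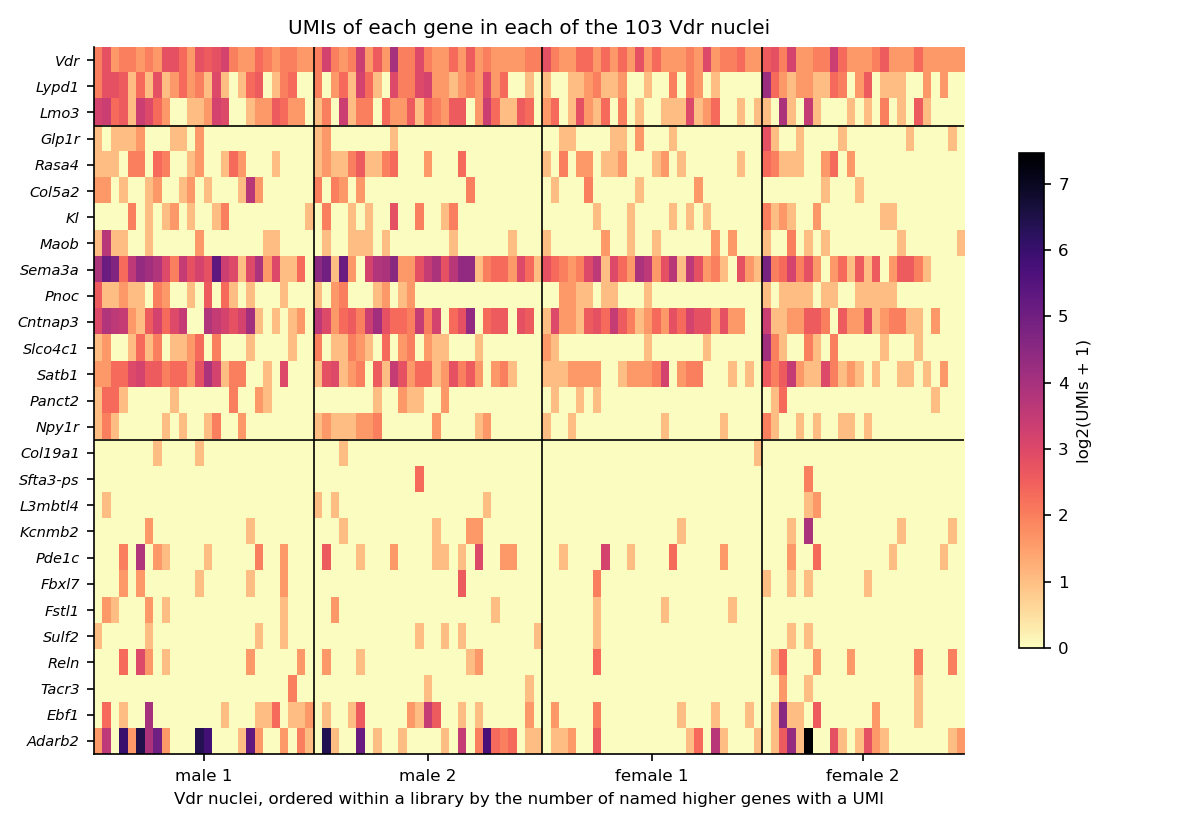
UMIs, as log2(UMIs + 1), of each named gene (rows) in each of the 103 Vdr nuclei (columns), grouped by library and ordered by the number of named higher genes with a UMI. Upper block: Vdr, Lypd1 and Lmo3; middle: 12 higher genes; lower: 12 lower genes, of which a nucleus carried a median of 1, with Adarb2 high in a subset.

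Against the Npsr1 nuclei, the GABAergic neurons with the neuropeptide S receptor, 513 of 9431 genes passed (5.44%), 241 higher (2.56%) and 272 lower (2.88%). Npsr1 was part of the rule and is not counted. Without male 2 the count was 333, and without the library block 158. Rasa4 measured 49.5, 62.4, 92.8 and 63.0 CPM in Vdr nuclei against 4.51, 4.25, 6.70 and 5.13 CPM in Npsr1 nuclei (3.66 ± 0.28, adjusted p = 1.59e-09). Rxrg measured 44.0, 69.1, 70.9 and 87.4 CPM against 15.1, 21.1, 17.4 and 14.7 CPM, with no overlap (1.89 ± 0.24, adjusted p = 3.57e-06). Kl (2.71 ± 0.36), Maob (2.75 ± 0.37), Drd3 (2.53 ± 0.55), Pnoc (2.44 ± 0.34), Satb1 (1.71 ± 0.16), Cntnap3 (1.95 ± 0.18) and Etv1 (1.79 ± 0.20) were also higher, as log2 folds with SE. 

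Reln was far lower, at 33.0, 13.4, 21.8 and 52.5 CPM in Vdr nuclei against 250, 320, 454 and 310 CPM in Npsr1 nuclei (−3.39 ± 0.22, adjusted p = 5.65e-11). Adarb2 measured 724, 448, 153 and 773 CPM against 3065, 3254, 3251 and 2626 CPM (−2.58 ± 0.21, adjusted p = 3.78e-09; −3.33 with doublets removed). Qrfprl, related to the receptor of the peptide QRFP, averaged 3.29 ± 5.19 against 29.4 ± 4.92 CPM (−3.76 ± 0.58; −3.05 without male 1 and −5.09 without female 1), Tll1, a tolloid-like protease, averaged 14.7 ± 22.9 against 57.6 ± 8.82 CPM (−2.62 ± 0.40; −4.06 without female 1), and Col19a1 and L3mbtl4 were lower as well. The Vdr nuclei that had been set aside for Npsr1 are not in either group. Of the vitamin D axis 2 of 10 tested genes rose and 1 fell, of the lineage transcription factors 10 of 45 rose and 14 fell, and of the peptide and hormone receptors 5 of 20 rose and 1 fell. The comparison shares its Vdr nuclei with the one above.

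Against the Moxd1 nuclei, 752 of 5699 genes passed (13.2%), 322 higher (5.65%) and 430 lower (7.55%). The count was 455 without male 2 and 402 without the library block. The Moxd1 nuclei of the females numbered only 40 and 40, against 212 and 177 in males. Col19a1, which the Moxd1 nuclei expressed in quantity, measured 3.87, 2.38, 5.85 and 0 CPM in Vdr nuclei against 330, 351, 799 and 634 CPM in Moxd1 nuclei (−7.21 ± 0.29, adjusted p = 1.94e-10). Calb1, which differed from the other GABAergic nuclei as a whole by less, measured 48.3, 19.1, 35.1 and 19.1 CPM against 181, 225, 241 and 299 CPM (−2.80 ± 0.25, adjusted p = 1.4e-06). Crhr2, a receptor of the urocortin peptides (−5.80 ± 0.62), Pth2r, a parathyroid hormone receptor family member (−4.54 ± 0.49), Gna14, a G protein subunit (−4.53 ± 0.58), Sfta3-ps (−4.69 ± 0.39) and Kcnmb2 (−4.46 ± 0.28) were lower too. Leaving out a library took Sfta3-ps to −4.10 (male 1) and −5.45 (male 2), Pth2r to −5.51 (male 2), and Gna14 to −3.79 and Kcnmb2 to −5.38 (female 2).

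Higher than in Moxd1 nuclei were Rasa4 (4.42 ± 0.37), Nts (2.78 ± 0.37), Dpyd, the enzyme that starts pyrimidine breakdown, at 1251, 1170, 1756 and 1094 CPM against 360, 328, 258 and 69.2 CPM (2.36 ± 0.23, adjusted p = 3.17e-06), and Rxrg, at 46.4, 73.9, 76.1 and 95.6 CPM against 16.5, 7.12, 8.59 and 14.6 CPM (2.41 ± 0.34, adjusted p = 8.93e-05; 3.20 without male 1). Rxrg in Vdr nuclei was thus above all 3 comparison groups. Cntnap3 stood closer to the Moxd1 nuclei, at 278, 357, 568 and 214 CPM against 191, 189, 314 and 251 CPM, with overlap (0.58 ± 0.16, adjusted p = 0.0239). Lmo3 was lower in Vdr nuclei, at 166, 188, 252 and 149 CPM against 213, 232, 395 and 197 CPM, whereas Lypd1 averaged 161 ± 33.0 against 15 ± 12.7 CPM; both are given without a test. Of the vitamin D axis 1 of 10 tested genes rose and 1 fell, and of the lineage transcription factors 13 of 34 rose and 12 fell.

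Male and female libraries yielded similar numbers of Vdr nuclei. Among GABAergic nuclei they made up 0.524% (95% exact Clopper-Pearson interval 0.342 to 0.766) and 0.563% (0.371 to 0.817) in males and 0.726% (0.475 to 1.06) and 0.739% (0.474 to 1.10) in females. The difference of −0.19 percentage points, male minus female, gave an exact two-sided permutation p of 0.333, the smallest that 2 against 2 libraries allow. Taken as a share of all nuclei the difference was 0.0718 points in the other direction, with 0.294% and 0.315% in males and 0.239% and 0.227% in females, and with a Vdr limit of 3 UMIs it was −0.0132 points among GABAergic nuclei. With every nucleus thinned to 4000 UMIs it was −0.302 points, the libraries overlapping at 0.339% and 0.130% in males and 0.826% and 0.247% in females. The intervals cover counting error only.

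Within the Vdr nuclei, 4 of 5822 genes differed between male and female libraries (0.0687%; edgeR quasi-likelihood, adjusted p under 0.05), 2 higher (0.0344%) and 2 lower (0.0344%), and 507 had an unadjusted p under 0.05 (8.71%). They were sex-chromosome genes and 1 mitochondrial gene. The Y-linked genes Uty (159 and 159 CPM in males, 0 and 0 in females) and Eif2s3y (129 and 140 CPM in males, 0 and 0 in females) and the X-inactivation transcript Xist (0 and 0 CPM in males, 1653 and 1132 CPM in females) matched the labels. The mitochondrial gene mt-Nd2 measured 1.96 and 4.82 CPM in males and 116 and 256 CPM in females (−5.73 ± 0.63, adjusted p = 0.0137), and the other GABAergic nuclei of the same libraries showed 11.3 and 9.43 CPM in males and 76.3 and 277 CPM in females. All 4 calls were lost without either male library, where the count was 0; without female 1 it was 151 and without female 2 it was 356, each time with a lone library assumed to vary like the others. With DESeq2 22 genes passed.

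Of the genes that set the Vdr nuclei apart, the libraries of the sexes overlapped for Sema3a, Lypd1 and Satb1 and did not for Rasa4 or Glp1r, and none of the 3 tested (Rasa4, Satb1 and Glp1r) passed. Glp1r was 19.6 and 9.63 CPM in males and 40.6 and 42.1 CPM in females (log2 fold −1.44 ± 0.58, adjusted p = 0.512). Sema3a was 521 and 631 CPM in males and 742 and 337 CPM in females, Lypd1 139 and 185 against 128 and 195 CPM, and Rasa4 52.9 and 67.4 against 98.6 and 68.8 CPM (adjusted p = 0.762). Satb1 was 182 and 185 CPM in males and 226 and 180 CPM in females (log2 fold −0.13 ± 0.24, adjusted p = 0.927). Vdr itself was 182 and 246 CPM in males and 470 and 302 CPM in females; a fixed limit of 2 UMIs asks for a higher CPM in shallower nuclei, so these values carry the depth of the libraries.

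Whether the difference between Vdr nuclei and the other GABAergic nuclei itself differed by sex was tested with an interaction term. Of 16910 genes 39 passed (0.231%), 20 with a higher ratio in males (0.118%) and 19 with a higher one in females (0.112%), beside 777 with an unadjusted p under 0.05 (4.59%); DESeq2 called 1, and the count was 23 without male 1 and 14 without male 2. Prr5l, a regulator of the kinase complex mTORC2, measured 86.9 and 70.2 CPM in male Vdr nuclei and 4.95 and 10.3 CPM in female ones, beside 41.7 and 40.7 CPM and 89.7 and 31.4 CPM in the other nuclei of the same libraries (interaction 3.69 ± 0.55, adjusted p = 8.09e-08). The ratio was above 1 in both males and below 1 in both females; without female 1 the adjusted p was 0.0607. Rspo3, a secreted enhancer of Wnt signals, went the other way, at 5.43 and 8.78 CPM in males and 54.4 and 58.4 CPM in females, while the other nuclei stood at 9.05 to 10.2 CPM in all libraries (−3.03 ± 0.68, adjusted p = 0.00748). Rspo3 rested on 35 UMIs in 19 nuclei, and it no longer passed without male 1 (adjusted p = 0.380), male 2 (adjusted p = 0.10) or female 2 (0.200). Mog, an oligodendrocyte myelin gene, measured 52.5 and 72.4 CPM in males and 14.8 and 13.7 CPM in females, against 29.4 to 35.6 CPM in the other nuclei (2.33 ± 0.54, adjusted p = 0.00963); all 6 oligodendrocyte genes and all 6 astrocyte genes had a positive interaction, and 2 and 1 of them passed.

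**Figure D5:**
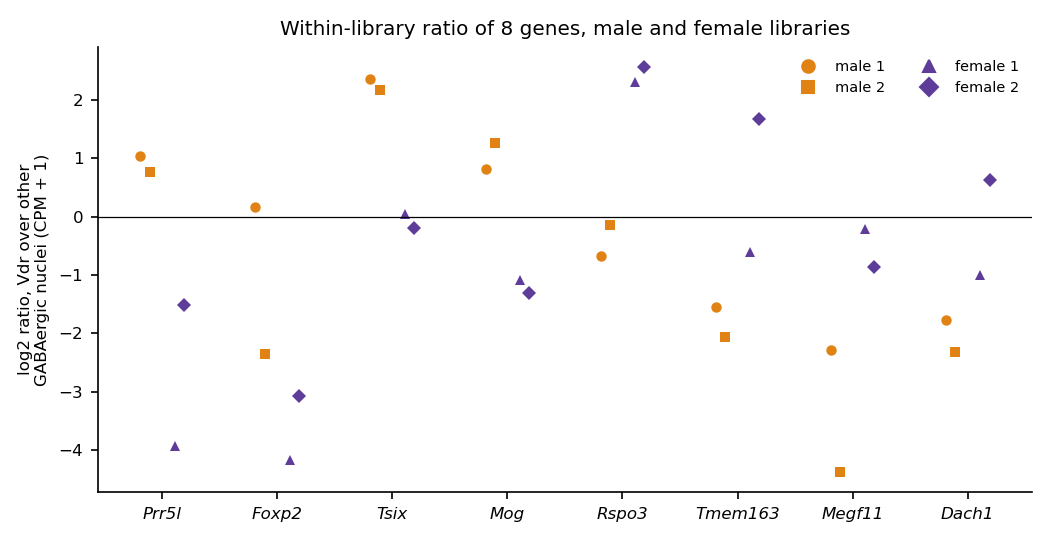
Log2 ratio of Vdr nuclei to other GABAergic nuclei (CPM + 1) in each library for the 8 named genes whose ratio differed between the sexes; males left, females right, 1 symbol per library. Prr5l lies above 0 in both males (1.04 and 0.77) and below in both females (−3.93 and −1.52), Rspo3 the reverse, and Foxp2 is spread by male 1 (0.16 against −2.35 in male 2).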

How the data were processed

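Nuclei were captured in droplets and their RNA sequenced, in 2 male and 2 female libraries of the posterior substantia innominata. The authors deposited, per library, a matrix of raw UMI counts per gene and nucleus; per the file headers it was made with Cell Ranger 9.0.1 (males), 7.0.0 (female 1) and 7.2.0 (female 2), while the submitters' processing notes name Cell Ranger 6.0.1, Seurat 5 and mm10. The labels name both v2 and v3 chemistry without saying which library used which. The 31899 genes listed in all 4 libraries were used, and 31851 were found in GENCODE vM21.

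From these counts, nuclei were filtered and chosen by the limits given above, UMIs were summed per library and class, and the sums were tested with edgeR 4.0.16 (R 4.3.3; TMM scaling, filterByExpr, quasi-likelihood test, two-sided, Benjamini-Hochberg adjustment over all genes tested, threshold 0.05). Both classes come from the same nuclei suspensions, so the library entered as a block, except between the sexes. Folds are those fitted by edgeR; CPM are scaled by TMM. The steps were tested on simulated data. The members and the gene lists were chosen with earlier results of these data known. The named genes were those past the threshold in the same direction in all 4 libraries, with at least 20 CPM in the higher class and a formal symbol: the 12 with the highest and the 12 with the lowest fold against the other GABAergic nuclei, 6 and 6 against Npsr1 and Moxd1 nuclei, and 4 and 4 for the sexes; list members and their counts are named besides, and some list members that passed are counted but not reported here by name or plotted. Scrublet-type doublet scores from scanpy 1.11.5 marked 0, 0, 3 and 1039 nuclei by their own threshold, so doublets were kept in the main comparisons and the highest scores removed in an alternative. Other alternatives were RLE scaling, no filter, DESeq2 1.42.0, no block, each library left out, depth-matched or stricter comparison nuclei, a Vdr limit of 3 and thinning to 4000 UMIs. Same-numbered male and female libraries were not paired (correlation of their deviations 0.0143 over 5816 genes). Counting intervals are 95%; a count of 0 allows 3 counts.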

Additional observations from a re-analysis of the deposited data

Results flagged for a closer look

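In a group of 4 libraries, 1 value lay far from the other 3. The log2 ratio of Satb1 in Vdr nuclei to that in other GABAergic nuclei was 2.69 in female 1 and 1.96 to 2.00 in the rest, with a gap of 0.938 of the whole range. Chance sets 1 library apart in this way in about 1 in 20 groups. The check covered the 12 higher and 12 lower named genes and the label markers, and Satb1 alone was flagged. A single flag is near the number that chance gives over so many genes. Both parts of the ratio stood at an extreme there, with 193 CPM in Vdr nuclei and 29.1 CPM in the other nuclei.

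For 8 genes the ratio of Vdr nuclei to other GABAergic nuclei differed between males and females by the interaction test (edgeR, adjusted p under 0.05), given as log2 male over female. The ratio was higher in males for Prr5l (3.69), Foxp2 (2.97), Tsix (2.84) and Mog (2.33). It was higher in females for Rspo3 (−3.03), Tmem163 (−2.77), Megf11 (−2.48) and Dach1 (−2.01). Few nuclei carried several of these genes: 1 male 1 nucleus held 25.9% of the Foxp2 UMIs, 1 female 2 nucleus held 42.6% of the Tmem163 UMIs, and 1 female 2 nucleus held 29.5% of the Dach1 UMIs. Foxp2 stood at 1.37 without male 1, Tmem163 at −1.25 without female 2 and Dach1 at −1.04 without female 2, each with an adjusted p of 1. Tsix, which is antisense to Xist and overlaps it, had 12.7 and 11 CPM in male Vdr nuclei and 297 and 58.4 CPM in female ones, and 1.68 and 1.66 CPM in the other male nuclei; its counts are uncertain for that overlap, and its adjusted p was 0.382 without male 1 and 0.0891 without male 2. Mog did not pass without male 2 (adjusted p = 0.390) or female 2 (0.562) and lay at the threshold without female 1, and Megf11 not without male 2 (0.891) or female 1 (0.316). Depth, software version and sex cannot be told apart in any of them.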

How the results depend on the processing

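Of the settings tried for the comparison with the other GABAergic nuclei (734 genes), RLE scaling gave 715, no filter 712 and doublets removed 805. Comparison nuclei held to the members' glutamate transporter and neuronal limits gave 741, and a Vdr limit of 3 gave 552. Added after seeing the data, non-striatal comparison nuclei gave 769 and no upper gene limit 600. DESeq2 gave 387, the fit with no replicate block 139 (138 of them shared with the 734), depth-matched nuclei 165 (162 shared), and leaving out a library 545 to 644. Against Npsr1 nuclei (513) DESeq2 gave 330, the fit without the block 158 and leaving out a library 333 to 465; against Moxd1 nuclei (752) the counts were 471, 402 and 455 to 680. Between the sexes (4) no filter gave 179, DESeq2 22, doublets removed 29, no upper gene limit 14, and leaving out a library 0 to 356. A replicate block gave 27, although same-numbered libraries were not paired by the labels, so this count is a hint only. For the interaction (39), DESeq2 gave 1 and leaving out a library 14 to 35. The share difference, −0.19 points, was 0.0718 as a share of all nuclei, −0.302 with thinning to 4000 UMIs, −0.0132 with a Vdr limit of 3 and −0.17 to −0.209 when a library was left out. With thinning to 4000 in place of 2000 UMIs, the share of Vdr nuclei with a UMI exceeded that of the other nuclei by 70.0 points for Vdr (51.5 at 2000) and 30.3 points for Lypd1 (16.9 at 2000). Log2 folds changed sign for Rxrb without male 1 (−0.44, with a range of −0.44 to 0.60 over the libraries left out), Slc1a2 with doublets removed (−0.23), and Chat (0.25) and Slc5a7 (0.11) with no upper gene limit. The cause of these shifts was not tested, beyond the smaller number of nuclei in depth-matched sums and of libraries where 1 was left out. Sums of 24 to 27 nuclei limit every result on genes with few UMIs.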
